A study of Gallus gallus with 24 samples.

Results

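The 70 genes described here code for the receptors, scaffolds and enzymes with which cells hold on to the extracellular matrix and rebuild it. They were chosen by gene symbol alone, from 6428 named genes among 15027 measured features, and are represented by 122 array spots. By role they comprise 6 integrin alpha chains, 5 integrin beta chains, 1 protein that matched only by its name (ITGB1BP3, which is no integrin chain), 8 laminins and nidogens, 11 elastic fibre and matricellular proteins, 6 enzymes and chaperones of collagen and elastin maturation, 7 matrix metalloproteinases (MMPs), 12 ADAM and ADAMTS genes, 3 tissue inhibitors of metalloproteinases (TIMPs) and 11 cathepsins. LOX, PLOD1, PLOD2 and THBS1 were not among the named genes analysed here.

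Abdominal fat was taken from cockerels of 2 broiler lines, called fat (FL) and lean (LL), which had been bred apart over generations for a heavy or a light depot. All birds were kept under ordinary broiler conditions, with no treatment other than the selection, and were sampled at 1, 3, 5, 7, 9 or 11 wk of age. Each of 24 spotted cDNA arrays carried 1 FL bird and 1 LL bird of the same age, so there were 4 arrays per age, and at each age FL carried the Alexa Fluor 647 dye on 2 arrays and Alexa Fluor 555 on the other 2. Each line is a bred population, so the groups differ by a whole selected background and not by 1 gene.

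The value per spot and array was the authors' deposited log ratio between the lines, taken as base 2. The sources used here do not state which line is the numerator. It is likely FL, which the sample titles give ahead of LL, and every sign of the ratios as deposited turns if it is LL. "Higher" means higher in the numerator line. A ratio holds no level, so the genes cannot be ranked by abundance and the labelled tissue could not be checked against marker levels. In whole tissue, fewer cells of a type and less RNA per cell cannot be told apart.

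As background, integrins are paired alpha and beta chains that span the membrane and bind matrix proteins outside and the actin cytoskeleton inside. Laminins are alpha, beta and gamma trimers that build the basement membrane, the sheet that surrounds every adipocyte, and nidogens tie them to collagen IV. When a fat depot grows its cells enlarge inside this sheath, and the surrounding collagen and elastic fibres are cut by MMPs, ADAMTS proteases and cathepsins, restrained by TIMPs, and laid down anew with the help of hydroxylases, chaperones and lysyl oxidases.

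The result for the 70 genes depends on how the deposited ratios are read. Read as deposited, 0 of the 70 differed between the lines over the 6 ages after adjustment for all features. If the deposited values are instead the 647 signal over the 555 signal on every array, they must be turned by the dyes before the lines are compared; read that way, 26 of the 70 genes (37.1%) were called, 15 higher and 11 lower, among 5358 of 15027 features (35.7%). The sources used here do not settle which reading applies. A turned value is FL over LL, because it takes the 647 signal as the numerator on every array. Where the readings are said to share or oppose a sign, FL is taken as the numerator as deposited. With LL as that numerator, shared and opposite signs would be exchanged. Values, counts and ranks below are for the ratios as deposited unless they are said to be turned.

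The test was limma's moderated test of the mean of 6 age effects, with a term for dye orientation, and Benjamini-Hochberg adjustment over 15027 features; it called 0 of 15027 features (0%). At an unadjusted p under 0.05, 1067 features (7.1%) and 10 of the 70 genes passed, which is 14.3% of the genes. Of these, 8 were higher (11.4%, against 4.13% of all features) and 2 were lower (2.86%, against 2.97%). The ratio was above 0 for 46 of the 70 genes (65.7%, against 51.8% of all features), with a median of 0.018 against 0.0018. Turned by the dyes, 34 of the 70 lay above 0 (48.6%, against 49.5% of all features), with a median of -0.0061 against -0.0014, so the larger share above 0 was seen in the deposited reading and not in the turned one. These shares describe the genes and carry no test of their own. The ratios were small: 61 of the 70 genes lay within 0.1 of 0 on the log2 scale, and the median standard error over all features was 0.0443.

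**Figure D1:**
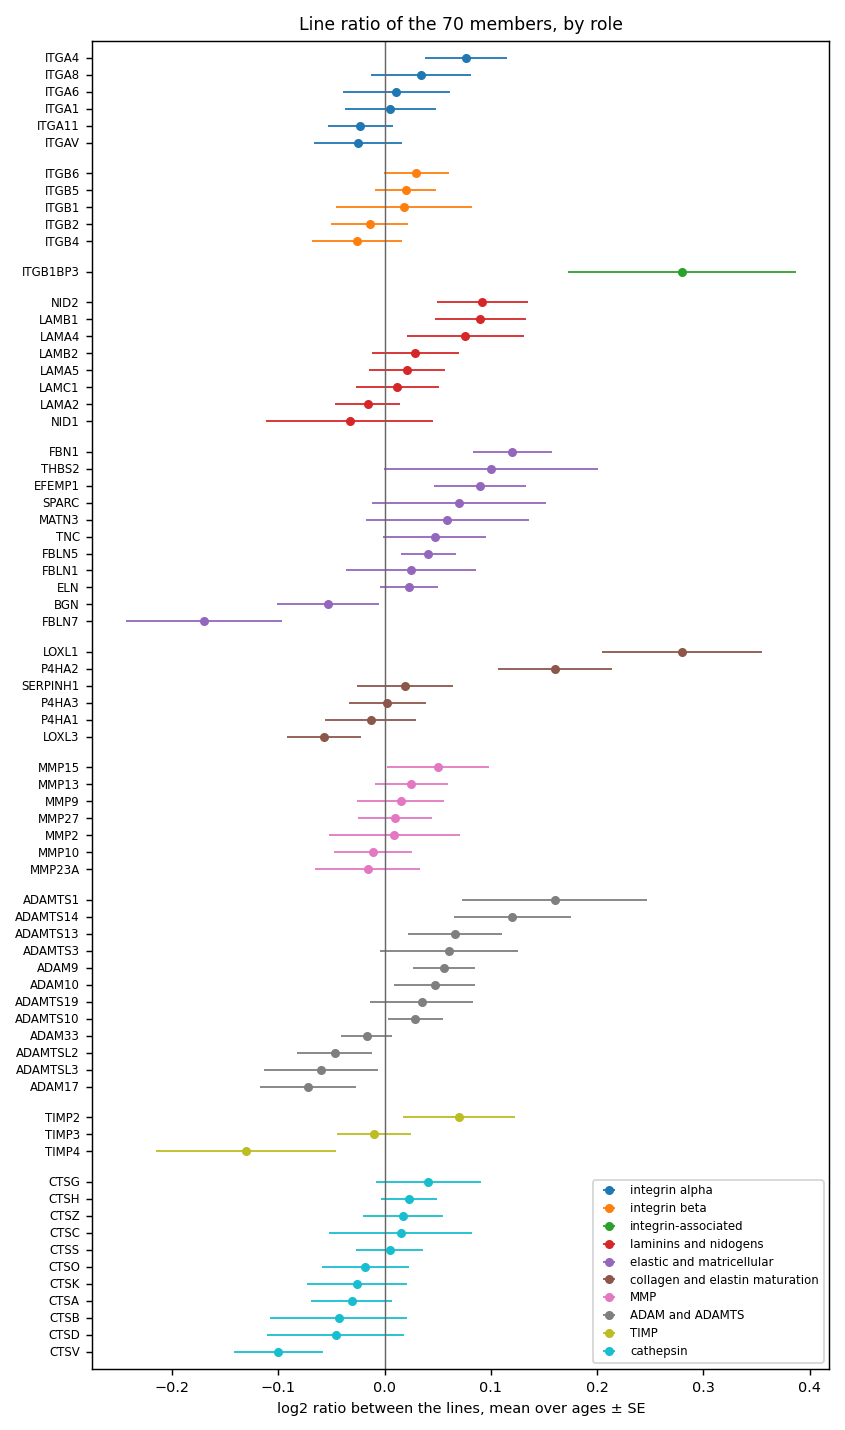
Line ratio of each of the 70 genes as deposited (log2, mean over 6 ages ± SE from the fit over 24 arrays), grouped and coloured by role. LOXL1 and ITGB1BP3 reach 0.28, FBLN7 lies lowest at -0.17, and most of the other error bars reach or come close to 0.

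Arrays differed in ways that touch these genes. Arrays of the same dye orientation correlated across spots at a mean r of 0.213 over 132 pairs, and arrays of opposite orientation at -0.17 over 144 pairs, so a part of each deposited ratio alternates with the dyes. On 1 wk replicate 2 and 5 wk replicate 1 the hepatocyte markers (18 of 20 measured) had medians of 1.29 and 0.70, and on 1 wk replicate 4 a median of -0.45, while the adipocyte markers (4 of 6 measured) reached 0.98 there. On 5 wk replicate 2 the fibrillar collagen list, which also holds collagen VI genes, fibronectin, periostin, decorin and lumican, had a median of -0.57. The part of these arrays in the results was not tested beyond leaving each of them out. Array values below are ratios from which the fitted dye component was taken away.

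The integrin chains lay close to 0 as deposited, from -0.026 to 0.077. Of the 6 alpha chains 4 lay above 0, with a median of 0.0083, and of the 5 beta chains 3 lay above 0, with a median of 0.018; 0 of the 11 chains passed an unadjusted p of 0.05. Turned by the dyes, 0 of the 6 alpha chains and all 5 beta chains were called by limma (adjusted p under 0.05), against 35.7% of all features. Of the beta chains 4 were higher, with ITGB2 highest at 0.23, and ITGB5 was lower at -0.13. The beta median was 0.11 and the alpha median -0.036, and the difference between alpha and beta chains was not tested. ITGA4, the alpha 4 chain, which with beta 1 binds fibronectin and the endothelial ligand VCAM1, came nearest to the unadjusted threshold as deposited. Its array values ran from -0.18 to 0.52 around a median of 0.075, with 16 of 24 arrays above 0. The mean ratio of ITGA4 was 0.077 (SE 0.0386, unadjusted p = 0.059, adjusted p = 0.73).

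ITGB1, the beta 1 chain that pairs with most alpha chains, was spread from -0.62 to 0.76 over the arrays, with 12 of 24 above 0. Its mean of 0.018 (SE 0.064) was well inside that spread. ITGAV, the alpha V chain of the receptors for vitronectin and other RGD proteins, had a mean of -0.025 (SE 0.0413), and ITGA6, a laminin receptor chain, a mean of 0.011 (SE 0.0502). ITGB6, which pairs with alpha V and releases active TGF-beta in mammals, had a mean of 0.030 (SE 0.0307). The other chains, ITGA1, ITGA8, ITGA11, ITGB2, ITGB4 and ITGB5, lay between -0.026 and 0.034.

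ITGB1BP3 binds the beta 1 tail in muscle cells and is better known as a nicotinamide riboside kinase. Its array values had the widest span, from -1.16 to 1.58 around a median of 0.33, and 18 of 24 lay above 0. The mean ratio of 0.28 (SE 0.107, unadjusted p = 0.0174) did not pass adjustment (adjusted p = 0.546). One array held the lowest value by far: on 5 wk replicate 2 ITGB1BP3 stood at -1.16, against 0.84, 0.92 and 0.38 on the other arrays of that age. Without that array the mean was 0.36 and the adjusted p 0.0437, the only call for any of the 70 genes when single arrays were left out of the mean over ages. Leaving out 5 wk replicate 2 also raised the count of all features called in that mean from 0 to 100. The call was thus not particular to ITGB1BP3.

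Of the 8 laminins and nidogens 6 lay above 0, with a median of 0.025. The pair with the highest ratios were NID2, a nidogen, and LAMB1, the laminin beta 1 chain, each at an unadjusted p under 0.05. NID2 ranged over the arrays from -0.43 to 0.49, with a median of 0.12 and 16 of 24 above 0. Its mean ratio was 0.092 (SE 0.0426, unadjusted p = 0.0426, adjusted p = 0.681), and its 4 spots all lay above 0, from 0.0093 to 0.17. LAMB1 ranged from -0.51 to 0.45, with a median of 0.12 and 17 of 24 arrays above 0, and had a mean of 0.090 (SE 0.0428, unadjusted p = 0.0466, adjusted p = 0.69).

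LAMC1, the gamma 1 chain that joins beta 1 in most laminins, stayed close to 0, with a mean of 0.012 (SE 0.0388) and array values from -0.43 to 0.36. Its 3 spots disagreed, from -0.071 to 0.13. NID1, the other nidogen, had a mean of -0.033 (SE 0.0784) and array values as far apart as -1.07 and 0.66. The remaining chains LAMA2, LAMA4, LAMA5 and LAMB2 lay between -0.016 and 0.076. Both nidogens bind the same laminin gamma 1 arm. As deposited their means lay on opposite sides of 0, but NID1 was within its standard error of 0. Without 5 wk replicate 3 the NID1 mean was 0.0093. Turned by the dyes both lay below 0, NID1 at -0.088 and NID2 at -0.068. The difference between them was not tested.

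Elastic fibre and matricellular proteins lay mostly above 0, 9 of 11 of them, with a median of 0.047, and 3 passed the unadjusted threshold. FBN1, fibrillin 1, the backbone of the microfibrils on which elastin is deposited, ranged from -0.13 to 0.46 with a median of 0.094. It was above 0 on 16 of 24 arrays and, on average, at all 6 ages. At 1 wk this held only narrowly, at 0.0083 (SE 0.0911) with 1 of 4 arrays above 0. The FBN1 mean over ages of 0.12 (SE 0.0372, unadjusted p = 0.00522, adjusted p = 0.409) came from 1 of its 2 spots, which read 0.24 while the other read -0.0034. FBLN7, a fibulin, had the lowest mean of the 70 genes as deposited: from -0.88 to 0.38 over the arrays, with a median of -0.14, 8 of 24 above 0 and a mean of -0.17 (SE 0.0734, unadjusted p = 0.0284, adjusted p = 0.614). Turned by the dyes FBLN7 stood at -0.068 (adjusted p = 0.412), and ITGB1BP3 (-0.41) and LOXL1 (-0.36) were lower. EFEMP1, another fibulin, had a mean of 0.090 (SE 0.0432, unadjusted p = 0.0492, adjusted p = 0.699), with 1 of 3 spots at 0.27 and the lowest at -0.0012.

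SPARC, a collagen-binding matricellular protein made by fat stroma, was above 0 on 18 of 24 arrays, with a median of 0.16 and a highest value of 0.63. Its lowest value was -1.91, on 5 wk replicate 2, and its mean was 0.070 (SE 0.0816, unadjusted p = 0.399). Single arrays of that age moved the SPARC mean both ways: it was 0.14 without replicate 2 (unadjusted p = 0.0123, adjusted p = 0.244) and 0.025 without replicate 1 (unadjusted p = 0.738, adjusted p = 0.999). THBS2, thrombospondin 2, spanned -1.42 to 0.96 and had a mean of 0.10 (SE 0.101), which was 0.056 without 5 wk replicate 4 and 0.16 without 1 wk replicate 3. ELN, elastin itself, had a mean of 0.023 (SE 0.0269) and 12 of 24 arrays above 0. TNC, tenascin C, stood at 0.047 (SE 0.0481), FBLN1, fibulin 1, at 0.025 (SE 0.0611), and BGN, the proteoglycan biglycan, at -0.053 (SE 0.0481). FBLN5 and MATN3 lay at 0.041 and 0.059.

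Collagen and elastin maturation held the gene with the smallest p of the 70, LOXL1, and the one above 0 on most arrays, P4HA2. LOXL1, a lysyl oxidase that cross-links elastin, ranged from -0.36 to 0.82 around a median of 0.33, with 17 of 24 arrays above 0. The mean of 0.28 is 1.22-fold (SE 0.075, unadjusted p = 0.00113, adjusted p = 0.294). It rests on 1 spot. P4HA2, a catalytic subunit of the collagen prolyl 4-hydroxylase, was above 0 on 20 of 24 arrays and on average at all 6 ages, ranging from -0.33 to 0.70 with a median of 0.14. Its mean was 0.16 (SE 0.0536, unadjusted p = 0.00787, adjusted p = 0.46), and its 2 spots read 0.11 and 0.20.

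P4HA1, the sister subunit, stood at -0.013 (SE 0.043), with array values from -0.40 to 0.33. SERPINH1, the collagen chaperone HSP47, stood at 0.019 (SE 0.0453). LOXL3, another lysyl oxidase, was at -0.057 (SE 0.0346), with all 3 spots below 0 and 10 of 24 arrays above 0, and P4HA3 at 0.0027. Of the 6 genes of this class 4 lay above 0, with a median of 0.011. Turned by the dyes, limma called 3 of the 6 (adjusted p under 0.05), 1 higher and 2 lower, against 35.7% of all features.

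**Figure D2:**
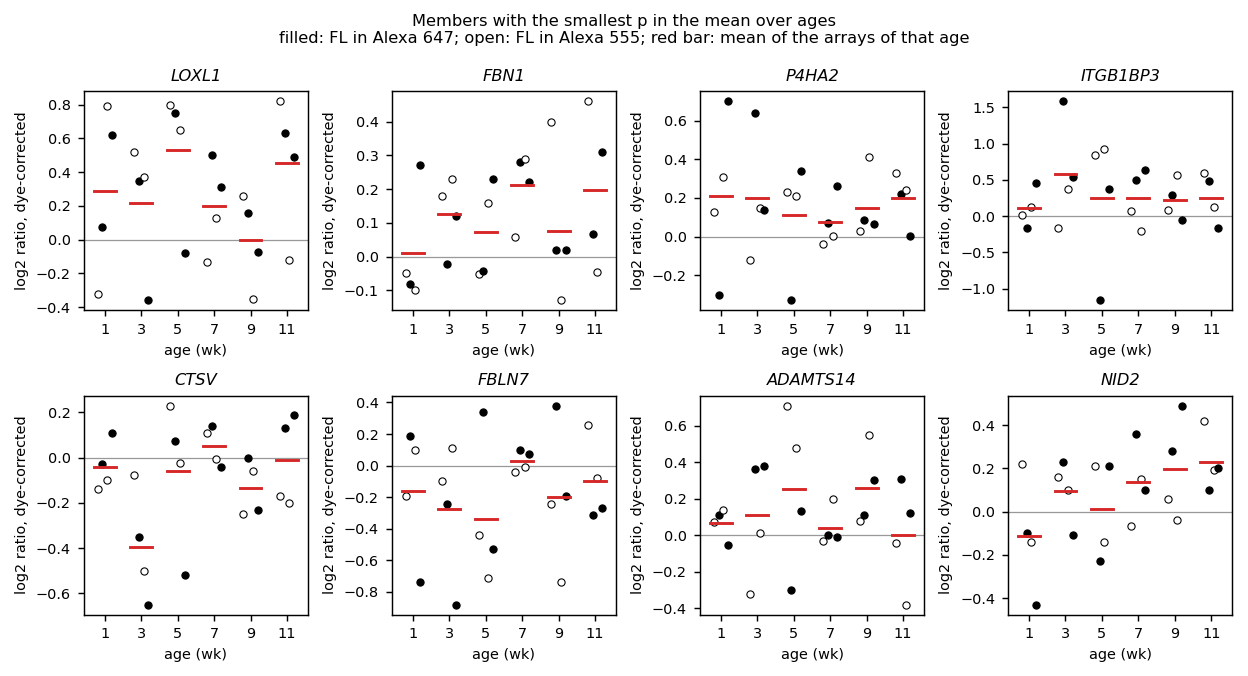
Dye-corrected log2 ratio on each array (points, 4 per age; filled where FL carried Alexa 647, open where it carried Alexa 555) and the mean of each age (red bar) for the 8 genes with the smallest p in the mean over ages. The axes differ in scale; P4HA2 lies above 0 on 20 of 24 arrays, and the point at -1.16 in the ITGB1BP3 panel is 5 wk replicate 2.

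The proteases and their inhibitors gave ratios on both sides of 0. Of 7 MMPs 5 lay above 0, all between -0.016 and 0.050, and 0 passed the unadjusted threshold. MMP2, the gelatinase secreted by stromal cells, had a mean of 0.0093 (SE 0.0613) with 12 of 24 arrays above 0, and MMP9, the gelatinase of leukocytes, 0.015 (SE 0.0406) with 11 of 24. MMP15, a membrane-type enzyme, was the highest at 0.050 (SE 0.0482), and its 4 spots ran from -0.021 to 0.17. MMP27 stood at 0.010 (SE 0.0348). MMP10, MMP13 and MMP23A lay between -0.016 and 0.025. Turned by the dyes, limma called 4 of the 7 MMPs (adjusted p under 0.05), 3 higher and 1 lower, against 35.7% of all features. In that reading MMP23A was highest at 0.21 and MMP9 lowest at -0.12.

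Among the ADAM and ADAMTS genes 8 of 12 lay above 0, with a median of 0.041. ADAMTS14, which in mammals trims the amino end of procollagen, was the one below an unadjusted p of 0.05. It ranged from -0.38 to 0.71 with a median of 0.11, was above 0 on 17 of 24 arrays, and had a mean of 0.12 (SE 0.0551, unadjusted p = 0.0372, adjusted p = 0.656). ADAMTS1, a protease of the proteoglycans aggrecan and versican, had a mean of 0.16 (SE 0.0872, unadjusted p = 0.0806) drawn from values as far apart as -0.68 and 1.56, both at 5 wk. Without 5 wk replicate 3, the array at 1.56, the ADAMTS1 mean was 0.082. ADAMTS13, the protease of von Willebrand factor, stood at 0.066 (SE 0.0441). ADAM17, the sheddase that frees TNF from the membrane, was the lowest of the class at -0.072 (SE 0.0455). The others, ADAM9, ADAM10, ADAM33, ADAMTS3, ADAMTS10, ADAMTS19, ADAMTSL2 and ADAMTSL3, lay between -0.060 and 0.061.

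The 3 TIMPs split: TIMP2, which also takes part in activating MMP2, had a mean of 0.070 (SE 0.0527), TIMP3, the inhibitor that stays bound to the matrix, -0.010 (SE 0.0348), and TIMP4 -0.13 (SE 0.0847). TIMP4 lacked a value on 1 wk replicate 4, and 8 of its 23 array values lay above 0, from -1.29 to 1.10. The TIMP4 mean was -0.053 without 1 wk replicate 3, the array at -1.29. None of the 3 reached an unadjusted p of 0.05 in limma's fit.

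Cathepsins, the proteases of the lysosome, were near an even split: 5 of 11 lay above 0, with a median of -0.018. CTSV, a cysteine cathepsin close to cathepsin L, ranged from -0.65 to 0.23 with a median of -0.051, and 7 of 24 arrays were above 0. Its mean was -0.10 (SE 0.042, unadjusted p = 0.0268, adjusted p = 0.609), with spots at -0.14 and -0.056. CTSB, the cysteine cathepsin B, had a mean of -0.043 (SE 0.0644), and 1 of its 5 spots stood lowest at -0.20. CTSD, the aspartic cathepsin, stood at -0.046 (SE 0.0642), and CTSK, the collagen-cutting cathepsin of osteoclasts and fibroblasts, at -0.026 (SE 0.0474). CTSS, the cathepsin of antigen-presenting cells, was at 0.0049 (SE 0.0316), and CTSG, a serine protease of granulocytes in mammals, at 0.041 (SE 0.0493). CTSA, CTSC, CTSH, CTSO and CTSZ lay between -0.031 and 0.023. The macrophage markers other than CTSS (8 of 12 measured) had a median of 0.038 in the same fit. Turned by the dyes, limma called 5 of the 11 cathepsins (adjusted p under 0.05), 2 higher and 3 lower, against 35.7% of all features.

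Agreement between spots of the same gene limits all of these readings. Of the 34 genes with several spots, 14 had all their spots on 1 side of 0. This count was not made over all features and was not set against what chance gives, so it is no evidence of agreement. The other 36 genes had 1 spot each, LOXL1, FBLN7, LAMB1 and ADAMTS14 among them.

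Consistency over ages and arrays was described by counts. Once the dye component was taken away, 4 of the 70 genes lay above 0 on at least 18 of 24 arrays (5.71%, against 2.45% of all features). They were P4HA2, ITGB1BP3, SPARC and ADAM9. On 6 arrays or fewer there were 0 genes (1.6% of all features). Before that step SPARC (5 of 12 arrays with FL in Alexa 647 and 10 of 12 with FL in Alexa 555) and ADAM9 (6 and 11) fell short of 18. P4HA2 (9 and 10), ITGB1BP3 (6 and 12) and NID2 (8 and 10) reached it. Above 0 on average at all 6 ages were 8 genes: FBN1, P4HA2, ITGB1BP3, ADAMTS14, ADAMTS1, ADAM9, ADAMTS3 and ADAMTS19. No gene was below 0 at all 6 ages. Signs over the 6 ages were not counted for all features, so these counts have no share to stand beside.

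Genes that work beside the 70 were set next to them by counts from the same fit. Of 17 measured focal adhesion genes 12 lay above 0, with a median of 0.014, and 1 was higher at an unadjusted p under 0.05. The basement membrane partners, collagens IV, XV and XVIII and their neighbours, were evenly split, 4 of 8 above 0 with a median of -0.0035, 2 higher and 2 lower at that threshold. Of the 16 genes on the plasminogen list 5 were measured, and all 5 lay above 0, with a median of 0.042 and 1 higher. Turned by the dyes 2 of the 5 lay above 0, with a median of -0.033. One of the 5, PLG, is also on the hepatocyte list. Of 13 lysosomal partners of the cathepsins 5 lay above 0, with a median of -0.031 and 0 past the threshold. The fibrillar collagen list had the highest median of these lists as deposited, and the lowest turned by the dyes. As deposited it had 11 of 12 genes above 0, a median of 0.11, and 5 higher and 0 lower at an unadjusted p under 0.05. Those 5 were POSTN, FN1, COL5A1, COL6A3 and LUM, of which only COL5A1 is a fibrillar collagen. Turned, 0 of 12 lay above 0, with a median of -0.13, and limma called 5 of them (adjusted p under 0.05), all lower. In that reading 35.7% of all features were called. This list holds the collagen substrates of P4HA2 and SERPINH1 beside other fibre proteins, and 0 of its genes passed adjustment over all features as deposited.

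At single ages each ratio rests on 4 arrays, but the spread behind its p-value was estimated for the gene over all 24 arrays. A single-age p-value thus does not measure the spread of the 4 arrays listed beside it. The median standard error over all features was near 0.108, and genes differed, with 0.0911 for FBN1 and 0.262 for ITGB1BP3. With limma, 0 of the 70 genes was called at any age after adjustment over all features. In the 15027 features it called 1 at 7 wk (0.00665%) and 0 at the other ages. The genes named at each age are the 3 with the smallest unadjusted p.

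At 1 wk, 39 of the 70 genes lay above 0 (55.7%, against 49.2% of all features). An unadjusted p of 0.05 was passed by 1 gene, against 2.67% of all features, with 0 higher (1.66% of all features) and 1 lower (1.43%, against 1%). ITGA8, the alpha 8 chain, which with beta 1 binds RGD proteins, read 0.029, -0.041, -0.39 and -0.79 on the 4 arrays. The low values came from replicates 3 and 4, 1 of each dye orientation. The age ratio was -0.30 (unadjusted p = 0.0173, adjusted p = 1), and -0.12 without replicate 4. CTSG read 0.37, 0.12, -0.059 and 0.51, a ratio of 0.23 (unadjusted p = 0.0658), and ITGB6 read 0.25, 0.011, 0.090 and 0.17, a ratio of 0.13 (unadjusted p = 0.0979). ITGB6 was above 0 on all 4 arrays, but only 1 of its 2 spots carried the ratio, at 0.30 against -0.035.

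At 3 wk, 46 genes lay above 0 (65.7%, against 50.3% of all features), and 6 passed that threshold (8.57%, against 6.87%). Of these, 4 were higher (5.71%, against 3.51%) and 2 lower (2.86%, against 3.37%). CTSV had the smallest p of the 70 genes at any age. Its arrays read -0.079, -0.35, -0.50 and -0.65, all below 0. The ratio was -0.39 (unadjusted p = 0.000951, adjusted p = 0.307), and both spots were low, at -0.41 and -0.38. EFEMP1 read 0.19, 0.48, 0.38 and 0.038, a ratio of 0.27 (unadjusted p = 0.0175), of which 1 spot gave 0.61 and another 0.046. ITGA4 read 0.52, 0.20, 0.21 and -0.053, a ratio of 0.22 (unadjusted p = 0.03); without replicate 1, the highest array, it was 0.11. All 6 integrin alpha chains lay above 0 at this age, with a median of 0.15, though ITGAV barely so at 0.00038. Of the 12 genes on the fibrillar collagen list 11 lay above 0, with a median of 0.35. Its fibrillar collagens COL1A1, COL1A2, COL3A1, COL5A1 and COL5A2 stood at -0.028, 0.41, 0.16, 0.63 and 0.0049. SPARC was above 0 on every array, 0.42, 0.41, 0.30 and 0.51, with a ratio of 0.41 (unadjusted p = 0.0536).

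At 5 wk the direction of several matrix genes differed from that at the neighbouring ages, and 38 genes lay above 0 (54.3%, against 50.3% of all features). The threshold was passed by 5 genes (7.14%, against 2.91%), 1 higher (1.43%, against 1.32%) and 4 lower (5.71%, against 1.58%). SPARC read 0.090, -1.91, -0.59 and -0.30. The ratio was -0.68 (unadjusted p = 0.00282, adjusted p = 1), the lowest at any age for the 70 genes, with both spots low, at -0.88 and -0.47. It depended on 1 array: without replicate 2 the ratio was -0.24 (unadjusted p = 0.109), and without replicate 1 it was -0.95. The fibrillar collagen list had a median of -0.57 on replicate 2 and -0.33 on replicate 1, against 0.12 on replicate 3 and 0.23 on replicate 4. Of its 12 genes 5 lay above 0 at this age, with a median of -0.087.

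LOXL1 at 5 wk read 0.80, 0.75, 0.65 and -0.077, 3 arrays high and 1 near 0, a ratio of 0.53 (unadjusted p = 0.00886, adjusted p = 1). LOXL3 read -0.42, -0.10, -0.23 and -0.15, below 0 on every array, a ratio of -0.23 (unadjusted p = 0.0144), of which 1 spot gave -0.52 and the others -0.090 and -0.067. The lysyl oxidases thus stood on opposite sides of 0. CTSK, at -0.24 (unadjusted p = 0.0488), was 1 of 2 cathepsins past the threshold, both lower, and 2 of 11 cathepsins lay above 0, with a median of -0.062. The CTSK ratio was -0.10 without replicate 1, the array at -0.65. All 7 MMPs lay above 0, with a median of 0.092 and 0 past the threshold. NID1 spread widely at this age, 0.66, -0.88, -1.07 and -0.10, and ADAMTS1, ITGB1BP3 and SPARC spread more widely still.

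At 7 wk, 46 genes lay above 0 (65.7%, against 45.5% of all features), and 3 passed the threshold (4.29%, against 3.13%), 2 higher (2.86%, against 0.646%) and 1 lower (1.43%, against 2.49%). ADAMTS13 read 0.12, 0.66, -0.12 and 0.41, a ratio of 0.27 (unadjusted p = 0.0217), with replicate 3 on the other side of 0; without replicate 2 it was 0.13. ITGA11, a collagen-binding alpha chain, read -0.49, -0.15, 0.018 and -0.12, a ratio of -0.19 (unadjusted p = 0.0221), and 1 spot gave -0.36 while the other gave -0.013. Without replicate 1, its lowest array, the ITGA11 ratio was -0.078. FBN1 read 0.058, 0.28, 0.29 and 0.22, above 0 on all 4 arrays, a ratio of 0.21 (unadjusted p = 0.0292). Of its spots 1 gave 0.42 and the other 0.0090.

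At 9 wk, 43 genes lay above 0 (61.4%, against 56.4% of all features). The 3 genes past the threshold were a smaller share than in the features at large (4.29%, against 8.84%), with 2 higher (2.86%, against 5.31%) and 1 lower (1.43%, against 3.53%). TIMP4 read -0.23, -0.76, -0.80 and -0.50, below 0 on all 4 arrays, a ratio of -0.57 (unadjusted p = 0.0102, adjusted p = 0.481). MMP27 read 0.065, 0.084, 0.19 and 0.60, a ratio of 0.23 (unadjusted p = 0.0126) that was 0.10 without replicate 4. THBS2 read 0.76, 0.42, 0.16 and 0.96, above 0 throughout, a ratio of 0.57 (unadjusted p = 0.0303). SPARC was again above 0 on every array, 0.63, 0.22, 0.16 and 0.23, with a ratio of 0.31 (unadjusted p = 0.136). Before the dye component was taken away, SPARC read 0.93, -0.075, 0.45 and -0.065 on these arrays.

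At 11 wk, 48 genes lay above 0 (68.6%, against 53.7% of all features). The threshold was passed by 4 genes (5.71%, against 1.33%), all higher (0.932% of all features were), and 0 were lower (0.399%). LOXL1 read 0.82, 0.63, -0.12 and 0.49, a ratio of 0.45 (unadjusted p = 0.0222). LAMB1 read 0.19, 0.21, 0.13 and 0.45, above 0 on all arrays, a ratio of 0.24 (unadjusted p = 0.0298). FBN1 read 0.46, 0.066, -0.045 and 0.31, a ratio of 0.20 (unadjusted p = 0.0419) that was 0.11 without replicate 1. NID2, the fourth, read 0.42, 0.10, 0.19 and 0.20, again above 0 on all arrays, a ratio of 0.22 (unadjusted p = 0.0434). LAMB1 and NID2, partners in the basement membrane, thus both lay above 0 on 4 of 4 arrays at this age once the dye component was taken away. Before that step LAMB1 read -0.076, 0.48, -0.14 and 0.71, on both sides of 0, and NID2 read 0.48, 0.031, 0.25 and 0.13. The adjusted p of each of the 4 genes was 1.

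**Figure D3:**
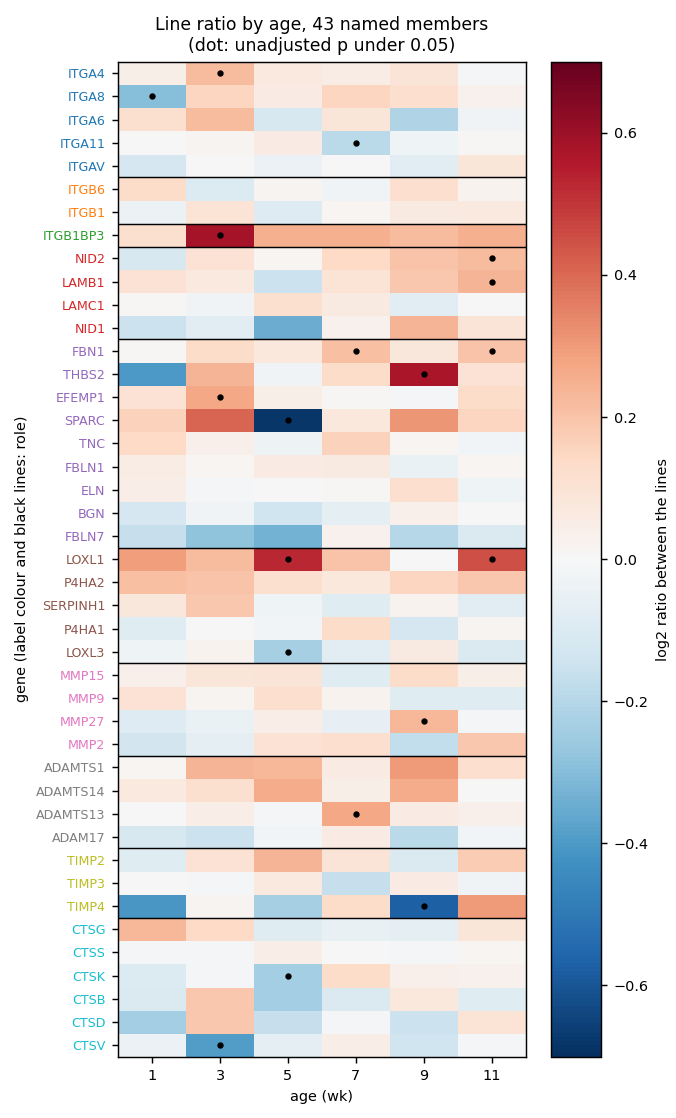
Line ratio (log2, colour) of the 43 named genes at each of 6 ages, grouped by role; dots mark an unadjusted p under 0.05. SPARC at 5 wk (-0.68) and TIMP4 at 9 wk (-0.57) are the deepest blue cells, and the row of P4HA2 is above 0 at every age.

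The change of the ratio with age was tested as a linear trend per week and as any difference between the 6 ages, with limma and adjustment over all features; each called 0 of 15027 features (0%). In the trend 41 of the 70 slopes lay above 0 (58.6%, against 54.7% of all features). An unadjusted p of 0.05 was passed by 1 gene, against 2.44% of all features, with a rising slope (1.43%, against 1.08%), and by 0 with a falling one (1.36% of all features). It was NID2, whose age ratios ran -0.11, 0.10, 0.015, 0.14, 0.20 and 0.22 from 1 to 11 wk. The slope was 0.030 per wk (unadjusted p = 0.0244, adjusted p = 1), between 0.022 and 0.039 with single arrays left out. Its 4 spots gave slopes of 0.0022, 0.023, 0.046 and 0.050 per wk. THBS2 had a slope of 0.052 per wk (unadjusted p = 0.0926), which was 0.027 without 1 wk replicate 3, where THBS2 stood at -1.42. ITGA8 had a slope of 0.024 per wk (unadjusted p = 0.1), and 0.011 without 1 wk replicate 4.

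In the test of any difference between ages 1 gene passed, against 2.28% of all features. SPARC had an unadjusted p of 0.0144 (adjusted p = 1). Its age ratios were 0.16, 0.41, -0.68, 0.073, 0.31 and 0.15, with 5 wk the only age below 0. How far 5 wk stood apart depended on 1 array: its ratio was -0.24 without 5 wk replicate 2, and -0.95 without 5 wk replicate 1. TIMP4 came next, at 0.0571, with ratios of -0.41, 0.018, -0.23, 0.13, -0.57 and 0.30. CTSV followed at 0.0796, its ratio of -0.39 at 3 wk against -0.14 to 0.049 at the other ages.

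**Figure D4:**
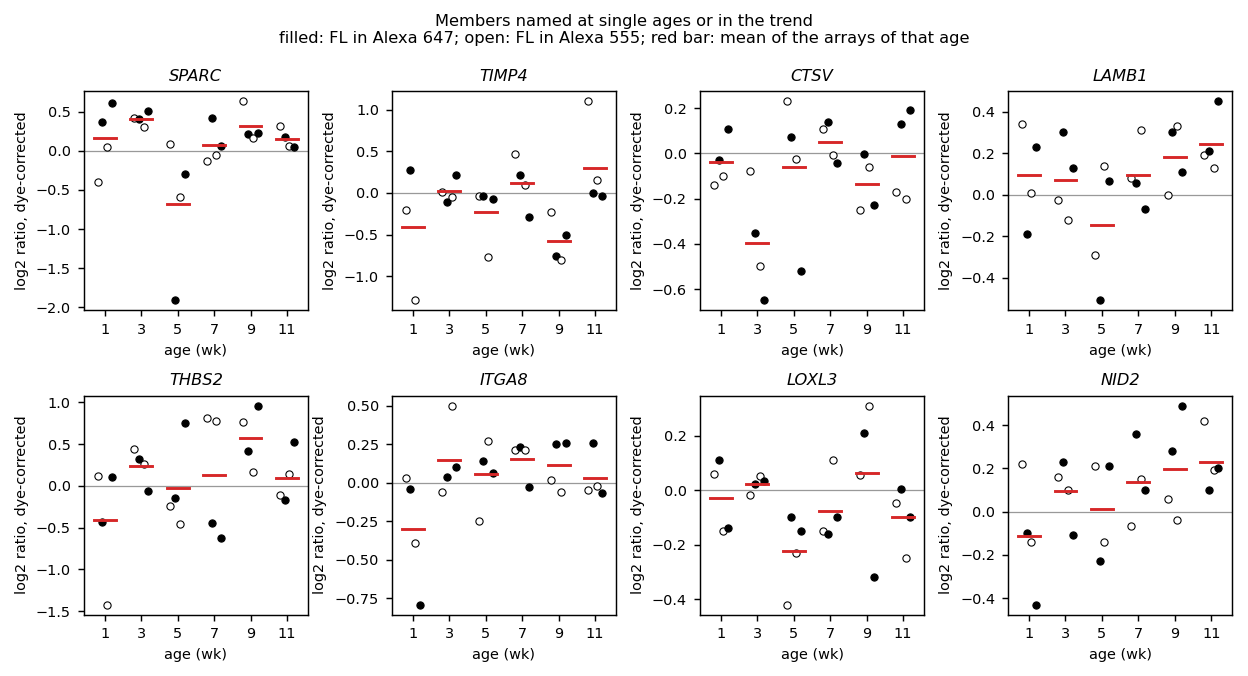
Dye-corrected log2 ratio on each array (points, filled where FL carried Alexa 647, open where it carried Alexa 555) and the mean of each age (red bar) for 8 genes named at single ages or in the trend; the axes differ in scale. The SPARC point at -1.91 is 5 wk replicate 2, and the 4 TIMP4 points at 9 wk lie between -0.80 and -0.23.

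Of the alternatives run, the reading of the ratio itself moved the most results. Turned by the dyes, the line difference lies in the component that alternates with dye orientation. The share of the 70 genes called in that reading, given above, was close to that of the features at large. By role, 5 of 5 integrin beta chains, 4 of 7 MMPs, 5 of 11 cathepsins and 3 of 6 maturation genes were called. So were 3 of 12 ADAM and ADAMTS genes, 3 of 11 elastic fibre and matricellular genes and 1 of 3 TIMPs. Of the laminins and nidogens 1 of 8 was called, of the integrin alpha chains 0 of 6, and ITGB1BP3 was called. In the reading used above, the alternating component was called for 20 of the 70 genes (28.6%, against 28.8% of all features) and was larger than the line ratio for 52 of the 70. With FL as the numerator as deposited, the readings gave opposite signs for 36 of the 70 genes. The counts of 52 and 36 were not made over all features, so they are not set against a share.

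Single genes show what this means. LOXL1 as deposited averaged -0.075 on the 12 arrays with FL in Alexa 647, where 5 were above 0, and 0.64 on the 12 with FL in Alexa 555, where all 12 were above 0. Turned by the dyes its ratio was -0.36 (adjusted p = 0.00132), on the other side of 0. SPARC averaged -0.23 and 0.37 in the same groups, and turned -0.30 (adjusted p = 0.0248); ITGB1BP3 averaged -0.14 and 0.69, and turned -0.41 (adjusted p = 0.00061). FBN1 went from 0.12 to -0.15 (adjusted p = 0.00498), but its 2 spots held alternating components of opposite sign, 0.056 and -0.35.

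Some genes kept their sign under both readings, again with FL as the numerator as deposited. LAMB1 was 0.090 as deposited and 0.27 turned (adjusted p = 0.000192), ITGB1 was 0.018 and 0.22 (adjusted p = 0.00183), ADAMTS14 was 0.12 and 0.14 (adjusted p = 0.0106), and CTSB was -0.043 and -0.27 (adjusted p = 0.000474). P4HA2 was nearly free of the alternating component only as the average of its 2 spots, which held components of opposite sign, 0.14 and -0.20. The gene averaged 0.13 with FL in Alexa 647 and 0.18 with FL in Alexa 555. Turned, P4HA2 stood at -0.027 (adjusted p = 0.689). SERPINH1 was near 0 as deposited (0.019) and at -0.28 turned (adjusted p = 6.46e-05). The spots of a gene agreed no better there: of 34 genes with several spots, 14 had the alternating component on 1 side of 0 in all of them. That count too has no share of all features or chance level to stand beside.

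**Figure D5:**
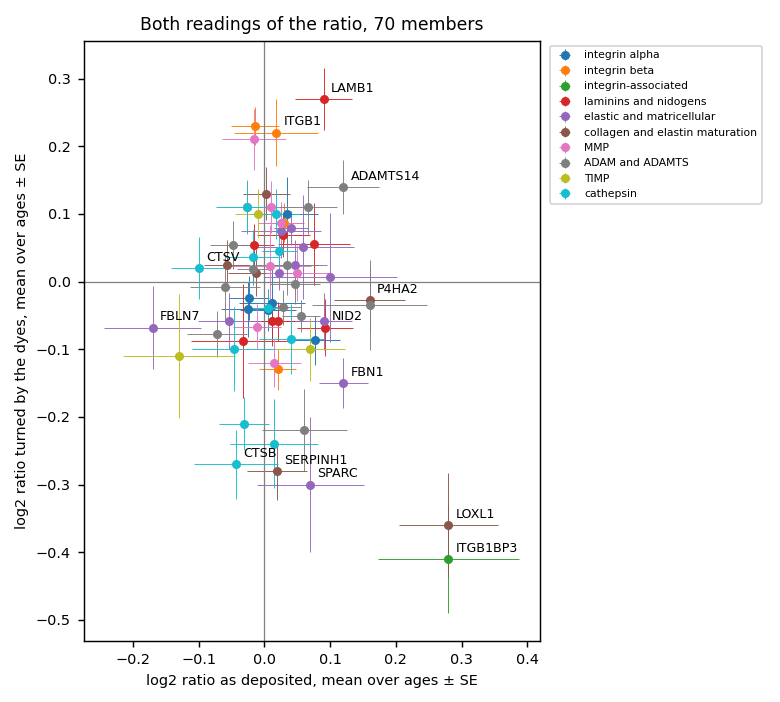
Mean over ages of the log2 ratio read as deposited (x axis) and turned by the dyes (y axis) for the 70 genes, with SE bars, coloured by role. LOXL1, ITGB1BP3, SPARC and FBN1 lie right of and below 0, where the readings oppose each other; LAMB1 (0.090 and 0.27) and ADAMTS14 lie above 0 in both.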

How the data were processed

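The values were log2 ratios deposited by the authors, 1 per spot and array, in a table of 19200 spots and 24 arrays. Per the submitters' processing notes, the tools were R 2.11.1 with limma 3.4.5. How background was corrected, whether arrays were normalized, and which log base and numerator apply is not given in the sources used here. Base 2 is assumed, the base limma writes. Scanner intensities were not used, so signal over background is unknown.

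Spots were named from the platform annotation after exchanging row and column within the block of each spot identifier. With that exchange, clones of the same gene correlated by rank at a mean of 0.0593 within arrays (2599 gene pairs, above 0 on 24 of 24 arrays), against 0.0067 (14 of 24 arrays) with the names as given. Gene identifiers of 10455 of the 10601 named spots (98.6%) matched a RefSeq table (assembly bGalGal1.mat.broiler.GRCg7b), from which only names were taken. Spots of a gene were averaged, without 123 spots that hold 2 control clones, which gave 15027 features.

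Ratios were fitted as deposited with limma 3.58.1 in R 4.3.3 (lmFit and eBayes; 6 age effects and a dye-orientation term of +1 where FL carried Alexa 647 and -1 otherwise), with Benjamini-Hochberg adjustment over all features and a threshold of 0.05. The fit was tested on simulated data. A missing value stayed missing. Replicate numbers stand for different birds, so the spread behind each p-value is that of birds and arrays combined. Genes were named by rule: the 8 smallest p in the mean over ages, the smallest p and largest ratio of each role, a fixed list of well-known members, and the 3 smallest p at each age, in the trend and in the test of change. SPARC at 3 and 9 wk, CTSK, NID1, ITGB1BP3 and ADAMTS1 at 5 wk, NID2 at 11 wk and the turned values of ITGB2 and ITGB5 were added after their values were seen. The 70 genes and all lists, and the choice to read the ratios as deposited, were made with earlier results of these data known. Alternatives were the direction of the ratios, the dye term, spot names, spot averaging, centring, scale, array weights, robust eBayes, complete values, the replicate block and leaving out arrays.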

Additional observations from a re-analysis of the deposited data

Results flagged for a closer look

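In 80 sets of 4 arrays of the same age, 7 held an array far from the other 3 by Dixon's test, and chance alone gives about 1 in 20. ADAMTS14 at 7 wk stood at 0.20 on replicate 3, against -0.033 to 0.0035 on the others. FBN1 at 1 wk stood at 0.27 on replicate 4, against -0.10 to -0.049. ITGA8 at 7 wk stood at -0.028 on replicate 4, against 0.21 to 0.23, and at 11 wk at 0.26 on replicate 2, against -0.067 to -0.022. P4HA2 at 9 wk stood at 0.41 on replicate 3, against 0.031 to 0.084. SPARC at 9 wk stood at 0.63 on replicate 1, against 0.16 to 0.23. TIMP4 at 5 wk stood at -0.77 on replicate 3, against -0.076 to -0.032.

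For 2 of the 70 genes all arrays of one age lay on the opposite side of 0 from all arrays of another, once the dye component was taken away. Before that step neither gene separated in this way. ITGB5 at 11 wk read 0.25, -0.090, 0.17 and -0.011, and ITGB6 at 3 wk read -0.32, 0.063, -0.18 and 0.066. The same count was not made over all features. ITGB5 was lower at 9 wk than at 11 wk by a difference of -0.18 (SE 0.0994, unadjusted p = 0.0917 and adjusted p = 1 in limma). ITGB6 was higher at 1 wk than at 3 wk by 0.22 (SE 0.106, unadjusted p = 0.0482, adjusted p = 1).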

How the results depend on the processing

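The direction of the ratios mattered most. In this section features are counted as called after adjustment, and the 70 genes at an unadjusted p under 0.05. Those counts cannot be set against each other. The share of all features at the unadjusted threshold is not given for these settings, so no excess among the 70 genes can be read from them. Turned by the dyes, the features called by limma numbered 5358 in the mean, 507 at 1 wk, 377 at 3 wk, 1281 at 5 wk, 2040 at 7 wk, 1386 at 9 wk, 631 at 11 wk, 209 in the trend and 703 in the test of change, and the genes of the 70 with an unadjusted p under 0.05 numbered 30 in the mean, 9 at 1 wk, 16 at 3 wk, 19 at 5 wk, 9 at 7 wk, 18 at 9 wk, 10 at 11 wk, 5 in the trend and 12 in the test of change. Signs that turned were, in the mean over ages, ADAMTS1 -0.035, CTSG -0.085, CTSK 0.11, CTSS -0.039, CTSV 0.020, EFEMP1 -0.059, FBN1 -0.15, ITGA4 -0.087, ITGA6 -0.031, ITGB1BP3 -0.41, LAMC1 -0.059, LOXL1 -0.36, LOXL3 0.025, MMP9 -0.12, NID2 -0.068, P4HA1 0.013, P4HA2 -0.027, SERPINH1 -0.28, SPARC -0.30, TIMP2 -0.10 and TIMP3 0.10, at 1 wk CTSG -0.0044, at 3 wk EFEMP1 -0.075, ITGA4 -0.23 and SPARC -0.25, at 5 wk LOXL1 -0.55, LOXL3 0.13, CTSK 0.30 and ITGB1BP3 -1.05, at 7 wk ITGA11 0.026 and FBN1 -0.11, at 9 wk SPARC -0.38, at 11 wk LOXL1 -0.25, FBN1 -0.16 and NID2 -0.14, in the trend per wk THBS2 -0.016. With spot names as the platform annotation gives them, without exchanging row and column, the genes with an unadjusted p under 0.05 numbered 2 in the mean, 4 at 1 wk, 3 at 3 wk, 0 at 5 wk, 1 at 7 wk, 6 at 9 wk, 0 at 11 wk, 4 in the trend and 2 in the test of change, and signs that turned were, in the mean over ages, CTSB 0.0092, CTSD 0.0054, CTSK 0.011, CTSS -0.018, EFEMP1 -0.0011, FBLN1 -0.0086, FBN1 -0.018, ITGA11 0.0018, ITGA6 -0.036, ITGA8 -0.056, ITGB1BP3 -0.011, ITGB6 -0.00068, LAMC1 -0.025, LOXL3 0.017, MMP2 -0.021, MMP27 -0.0094 and SPARC -0.054, at 1 wk CTSG -0.055 and ITGB6 -0.065, at 3 wk SPARC -0.15, at 5 wk NID1 0.047 and ITGB1BP3 -0.11, at 7 wk FBN1 -0.023, at 11 wk FBN1 -0.021, in the trend per wk THBS2 -0.0036 and ITGA8 -3.9e-05; this setting puts other spots under each name. With array weights the features called numbered 2 in the mean, 173 at 3 wk and 7 at 11 wk, and the genes with an unadjusted p under 0.05 numbered 7 at 7 wk, 7 at 11 wk, 2 in the trend and 5 in the test of change. Array weights called CTSV at 3 wk (-0.48, adjusted p = 0.0188) and turned, in the mean over ages, CTSB 0.0098, LAMC1 -0.015, MMP27 -0.0065 and MMP9 -0.00015. Without the dye term such genes numbered 5 in the mean, 2 at 5 wk, 0 at 11 wk and 0 in the test of change. Without 1 wk replicate 2 and 5 wk replicate 1 there were 3 at 1 wk, 3 in the trend and 4 in the test of change, and signs that turned were, in the mean over ages, CTSK 0.0023, ITGAV 0.017 and P4HA1 0.014. The median of spots turned LAMC1 to -0.011, and scale normalization turned MMP27 to -2.8e-05. With spots kept single, 1 feature was called in the mean and 70 of 122 spots lay above 0. Leaving out single arrays, the genes with an unadjusted p under 0.05 ranged from 0 to 3 at 1 wk, 0 to 4 at 11 wk, 1 to 8 at 3 wk, 4 to 10 at 5 wk, 1 to 8 at 7 wk, 3 to 6 at 9 wk, 1 to 4 in the test of change, 6 to 15 in the mean, 0 to 3 in the trend, and the features called from 0 to 1 at 1 wk, 0 to 18 at 3 wk, 0 to 5 at 5 wk, 0 to 2 at 7 wk, 0 to 100 in the mean. The upper ends of the mean, 15 genes and 100 features, came without 5 wk replicate 2. Of the 70 means over ages, 22 changed sign when some array was left out. They ranged for CTSS -0.0079 to 0.021, FBLN1 -0.0073 to 0.069, ITGA6 -0.0050 to 0.047, ITGB1 -0.032 to 0.050, LAMC1 -0.0053 to 0.033, MMP2 -0.025 to 0.035, MMP27 -0.011 to 0.024, MMP9 -0.0054 to 0.029, NID1 -0.092 to 0.0093, P4HA1 -0.034 to 0.0092, SERPINH1 -0.0019 to 0.045, TIMP3 -0.027 to 0.013, MATN3 -0.019 to 0.10, LAMA2 -0.028 to 0.0010, CTSZ -0.0044 to 0.041, CTSO -0.048 to 0.0031, ITGB2 -0.038 to 0.0024, MMP23A -0.039 to 0.0090, MMP10 -0.025 to 0.0099, CTSC -0.014 to 0.060, ITGA1 -0.015 to 0.029, P4HA3 -0.020 to 0.028. The means over ages of CTSK and ITGAV ranged from -0.045 to -0.0013 and from -0.044 to -0.00061 with single arrays left out. The median centring, robust eBayes and complete-value settings changed no call of the 70 genes and turned no sign. The cause of these differences was not tested.

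With the replicate number as a block (replicate block, in place of the dye term, which it contains) the genes with an unadjusted p under 0.05 numbered 9 in the mean, 2 at 1 wk and 2 in the test of change, and no call of the 70 genes after adjustment changed. Deviations of arrays with the same replicate number correlated at a mean r of -0.062 over 60 pairs. For other replicate numbers of the same dye orientation the mean r was -0.09 over 60 pairs. The means lay close together, so no clear pairing by number was seen, and the difference was not tested. The number of arrays limits the precision of every value, and signal over background was not analysed here.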
